A study of Homo sapiens with 3 samples.

Results

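The BCL2 family decides whether the outer membrane of mitochondria stays intact, and 10 of its genes were examined for MYC occupancy in parental U2OS cells. They comprise 5 pro-survival genes (BCL2, BCL2L1, BCL2L2, MCL1 and BCL2A1), 4 genes of BH3-only death inducers (BCL2L11, BID, BAD and BIK) and 1 gene of a pore-forming effector (BAK1). They were taken as a named list out of 19974 protein-coding genes on chromosomes 1 to 22 and X, by name and not by a threshold on any value, though with earlier results of these data known. A peak was assigned to a gene when its summit lay inside the annotated gene or within 5000 bp of it.

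U2OS is an established human osteosarcoma line. Per the labels, the series holds 2 libraries from chromatin precipitated with an antibody to MYC and 1 input library. They name no treated or altered cells, and fixed mouse NIH3T3 cells were mixed in as a reference genome. The measurements are those of 1 deposited list of 9818 peaks on hg38, so no value below has a replicate error and the depth behind it is unknown. Each peak carries the authors' fold enrichment over control at its summit and −log10 q, the strength of the call. Over the whole list the fold had a median of 7.78 (quartiles 5.58 and 11.5), and the median of −log10 q was 47.8.

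Pro-survival proteins hold the effectors BAK1 and BAX in check by binding them and the BH3-only proteins. BH3-only proteins are switched on by stress, occupy the groove of pro-survival proteins and release or trigger the effectors, which then open the membrane and let cytochrome c out. MYC, a transcription factor that binds DNA with MAX at E-boxes, drives growth and also sensitises cells to apoptosis, and raised BCL2 or MCL1 is a classical partner of MYC in tumours.

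MYC peaks were found at 8 of the 10 genes, on both sides of the survival and death balance. Of all protein-coding genes, 47.7% had a peak by the same rule. Pro-survival genes had one in 4 of 5 cases, BH3-only genes in 3 of 4, and BAK1 had one. In all there were 10 peaks: 6 genes had 1, BCL2L1 and BAD had 2 each, and BCL2A1 and BIK had none. With a stricter rule, a summit within 1000 bp of either annotated end of the gene, 6 members were bound (BCL2, BCL2L1, MCL1, BCL2L11, BID and BAD), against 37.6% of all protein-coding genes. The member just inside the 5000 bp limit was BCL2L2, whose summit lay 4787 bp away, and the next outside it was BIK at 13667 bp. No test was made of these counts.

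**Figure D1:**
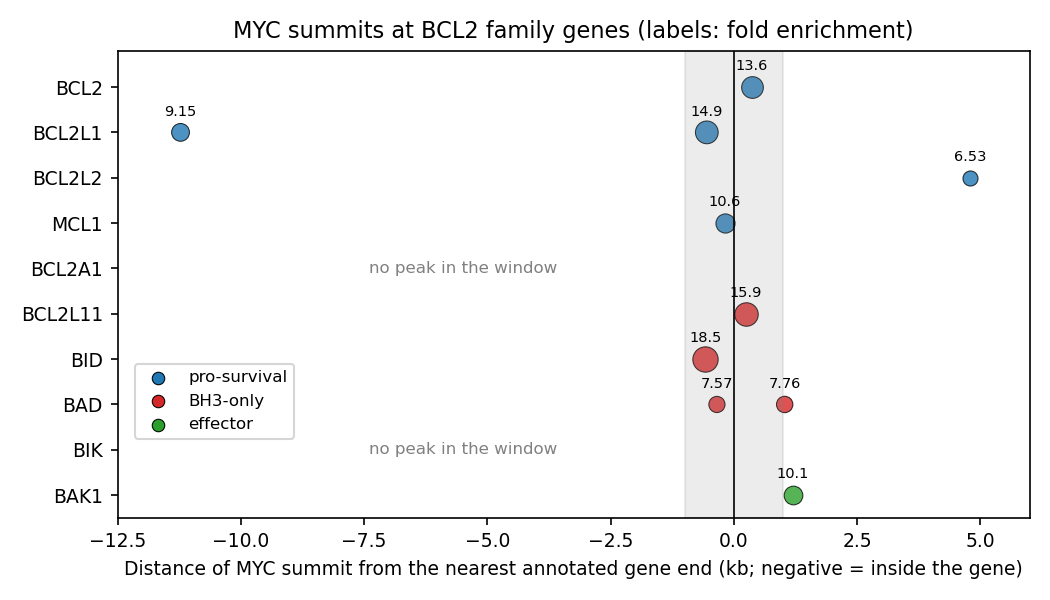
Each point is 1 MYC summit, placed by its distance in kb from the nearest annotated end of the member gene (negative values lie inside the gene, the grey band is 1 kb to either side), with area and label giving the authors' fold enrichment. Summits of 6 genes fall in the band, that of BCL2L2 lies 4787 bp out, and BCL2A1 and BIK have none.

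The chance of a peak by this rule differs with gene length. Among all protein-coding genes under 10000 bp, 33.6% had a peak, against 48.2% from 10000 to 20000 bp, 55.4% from 20000 to 100000 bp and 53.3% above that. All 3 members under 10000 bp (BCL2L2, MCL1 and BAK1) had a peak. Both members without one, BCL2A1 and BIK, fall in the class from 10000 to 20000 bp with BAD.

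The peaks of these genes were of middling to fairly high strength. Their folds ran from 6.53 to 18.5 with a median of 10.4, and 7 of the 10 exceeded the median fold of the list. By −log10 q, 9 of the 10 exceeded the median of the list, 47.8, most of them by little. Peaks of BAK1, BCL2, BCL2L2, MCL1 and BAD and the weaker peak of BCL2L1 had 50.9 to 59.7. BID, BCL2L11 and the stronger peak of BCL2L1 had 125, 142 and 117. None of the 10 came near the top of the list, where the fold reached 119. Taking the strongest peak of each gene by −log10 q, the 8 genes had a median fold of 12.1, beside 8.56 (quartiles 6.07 and 13) over the 9520 protein-coding genes with a peak. The highest folds belonged to 2 BH3-only genes, BID (18.5) and BCL2L11 (15.9), followed by BCL2L1 (14.9) and BCL2 (13.6). MCL1 (10.6) and BAK1 (10.1) came next, and BAD (7.57) and BCL2L2 (6.53) lay below the median of all genes with a peak. Whether neighbours in this order differ could not be judged, since there is no spread between replicates to set against them.

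**Figure D2:**
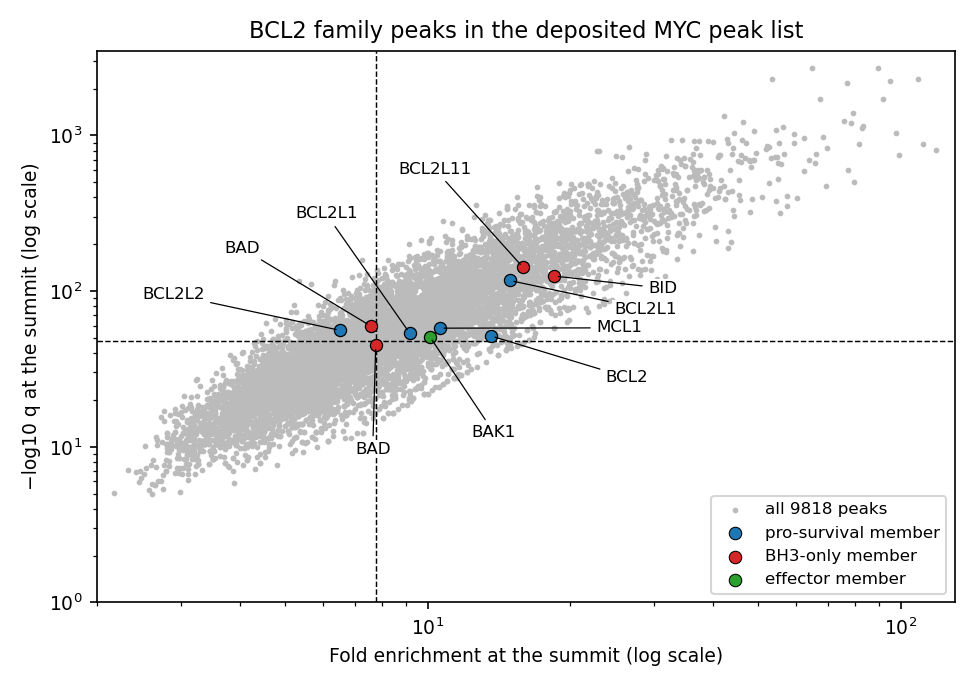
Fold enrichment (x axis) and −log10 q (y axis), both on log scales, of all 9818 peaks in grey and of the 10 peaks at BCL2 family genes in colour by role, with dashed lines at the medians of the list. BID, BCL2L11 and the promoter peak of BCL2L1 stand apart from the other 7 by −log10 q, at 125, 142 and 117.

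BID, a BH3-only protein that caspase-8 cleaves to carry the death receptor signal to mitochondria, had the highest peak of the listed members. The gene lies on chromosome 22 from 17734138 to 17774665 (minus strand), and its peak runs from 17773832 to 17774491. The fold of 18.5 exceeded that of 91.5% of peaks in the list, with a −log10 q of 125. The summit at 17774083 fell inside the annotated gene, 582 bp from its outer end and 41 bp upstream of 1 of 5 annotated BID starts, at 17774042. An end of the noncoding gene LINC00528 lay 3207 bp from the summit. RefSeq promoter windows of BID (GRCh38.p14, from 250 bases before an annotated start to 50 after it) cover the summit. The 110 bases before the BID start at 17774042 are shown because they hold both the summit and the canonical E-box CACGTG, in capitals:

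BID, chr22:17774043-17774152, minus strand: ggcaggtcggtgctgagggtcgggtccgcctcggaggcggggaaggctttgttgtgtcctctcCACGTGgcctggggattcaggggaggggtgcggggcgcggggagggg

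The E-box of BID occupies bases 17774084 to 17774089, and the summit at 17774083 is the base next to it on the side of the start. CACGTG is its own reverse complement and was searched in the promoter windows of all genes. Among protein-coding genes with a window, 10.9% had a CACGTG in at least 1 of their windows. Of the members, 7 of 10 had entries in the promoter table (13 windows in all), and BID alone of these 7 held a CACGTG. A share of 1 in 7 is near that background. The distance to the summit can be set against other peaks as well. Of 582 peaks whose summit lay in a protein-coding window with CACGTG, 9.28% had the motif within 1 bp of the summit. The median distance was 20 bp, and 36.1% had it within 10 bp. These distances describe the windows only, since sequence beyond them was not analysed here.

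**Figure D3:**
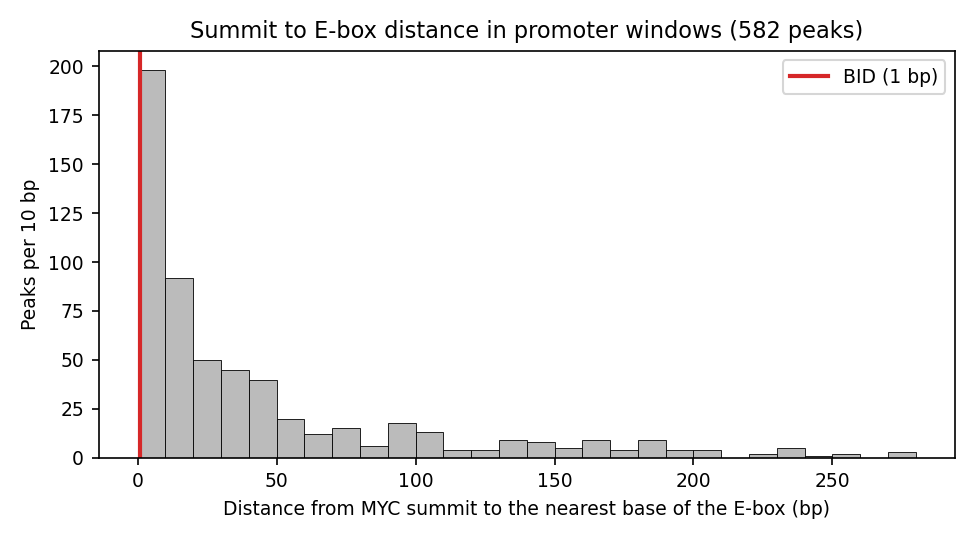
Number of peaks (y axis, bins of 10 bp) by distance in bp from the MYC summit to the nearest base of CACGTG, for the 582 peaks whose summit lies in a protein-coding promoter window with that motif. The red line marks BID at 1 bp, in the fullest bin of the plot, against a median of 20 bp.

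BCL2L11 encodes BIM, a BH3-only protein that binds every major pro-survival member and is itself a potent activator of the effectors. It lies on chromosome 2 from 111120914 to 111168445 (plus strand). Its peak, from 111120341 to 111120939, had a −log10 q of 142, the strongest call of the listed members, at a fold of 15.9. The summit at 111120671 lay 243 bp upstream of the annotated start. The end of ACOXL, an acyl-CoA oxidase-like gene, was 2123 bp from the summit. The first 140 bases of its promoter window are shown because the summit falls on the eighth base. The capitals mark CACGCG, a variant E-box, which was counted together with CGCGTG, its reverse complement:

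BCL2L11, chr2:111120664-111120803, plus strand: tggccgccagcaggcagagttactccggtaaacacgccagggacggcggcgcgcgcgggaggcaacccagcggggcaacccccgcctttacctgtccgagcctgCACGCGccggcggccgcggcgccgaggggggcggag

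In BCL2L11 the variant E-box lay 97 bp from the summit, within the peak. The canonical E-box was not in this window. CACGCG was found in 14.2% of all 22132 protein-coding windows, and in 25.7% of the 3937 windows that hold a summit. This motif itself contains CpG dinucleotides, and windows with a summit had more of them (median 29, against 17 without one). Whether the higher share goes beyond that difference was not tested. BCL2L11 and BID were the members with a summit in a promoter window, 2 of the 7 with entries, while 23.3% of all protein-coding genes with windows had one.

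BAD is a BH3-only protein held inactive by survival kinases through phosphorylation, and its gene lies on chromosome 11 from 64269828 to 64284704 (minus strand). Both of its peaks also lay at starts of GPR137, a gene on the opposite strand that overlaps it. The peak at the 5′ side, from 64284266 to 64286062, had a fold of 7.76 at a −log10 q of 44.9. Its summit was 1030 bp upstream of the outer BAD start and 114 bp upstream of a GPR137 start at 64285848. The peak at the 3′ side, from 64269262 to 64270706, had a fold of 7.57 at a −log10 q of 59.7. Its summit lay inside BAD, 344 bp from the 3′ end, 359 bp upstream of the outermost GPR137 start and 720 bp from an end of PLCB3, a phospholipase C gene. Thus BAD counted as bound at an end through the peak at its 3′ end, and a list of peaks does not tell which of these genes either site serves.

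BIK, a BH3-only gene on chromosome 22 (43110750 to 43129712) whose protein acts at the endoplasmic reticulum, had no peak. The nearest summit, 13667 bp from the gene, lay 19 bp from an end of MCAT, a mitochondrial fatty acid synthesis gene, with a fold of 8.04.

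Among pro-survival genes, BCL2L1 had the highest peak. It encodes BCL-XL, which guards the mitochondrial membrane in many solid tumours, and it lies on chromosome 20 from 31664452 to 31723963 (minus strand). The larger peak, from 31722627 to 31724066, had a fold of 14.9 at a −log10 q of 117. It spanned both annotated starts of the gene, at 31722868 and 31723963. Its summit at 31723414 lay between them, 546 bp upstream of the inner start and 549 bp from the outer one. A smaller peak inside the gene, from 31712525 to 31713044, had a fold of 9.15 at a −log10 q of 53.8. Its summit lay 10127 bp downstream of the inner start and 4103 bp from an end of the overlapping noncoding gene BCL2L1-AS1. Whether that site is exonic or intronic was not analysed here. Neither promoter window of BCL2L1 held CACGTG or either of the variant E-boxes searched. The summit lies between the 2 windows, in sequence not analysed here, so this says nothing of the site at the summit. The 120 bases before the outer start are shown as the upstream edge of the peak:

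BCL2L1, chr20:31723964-31724083, minus strand: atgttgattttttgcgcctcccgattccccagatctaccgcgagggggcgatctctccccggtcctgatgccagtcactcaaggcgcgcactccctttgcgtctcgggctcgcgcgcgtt

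BCL2, the founding member, found through the translocation of follicular lymphoma, lies on chromosome 18 from 63123346 to 63320090 (minus strand). Its 1 peak, from 63320016 to 63320720, had a fold of 13.6, above 82.2% of peaks in the list. Its −log10 q of 51.5 was above 53.3% of them. The summit lay 363 bp beyond the 5′ end of the annotated gene and 684 bp upstream of the start in the promoter table. No summit lay within the 196745 bp of the gene itself.

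MCL1 encodes a short-lived pro-survival protein that many cells need from hour to hour. It lies on chromosome 1 from 150574558 to 150579610, and its peak, from 150578650 to 150580257, had a fold of 10.6 at a −log10 q of 57.8. The summit lay inside the gene, 183 bp from its end at 150579610. A noncoding gene, LOC107985203, has an end 403 bp from the same summit, and another, ADAMTSL4-AS1, has one 4875 bp from it. At 1608 bp the MCL1 peak was wider than the median of the list, 747 bp. The median of the member peaks was 1044 bp, and the 5′ side peak of BAD was wider still, at 1797 bp.

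BCL2L2, which encodes BCL-W, counted as a member with a peak only through the width of the window. The gene lies on chromosome 14 from 23306833 to 23311751. The peak, from 23301280 to 23302661, had a fold of 6.53 at a −log10 q of 55.9. Its summit lay inside PPP1R3E, a gene for a glycogen-targeting subunit of protein phosphatase 1, at 813 bp from an end of that gene. It was the 1 peak of the 10 that was nearer to an end of another protein-coding gene than to any end of a member. The readthrough gene BCL2L2-PABPN1 has the same end as BCL2L2, 4787 bp from the summit.

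BCL2A1, a pro-survival gene that NF-κB induces in blood cells, lies on chromosome 15 from 79960892 to 79971196 (minus strand) and had no peak. The nearest summit was 36930 bp away, 870 bp from an end of ST20-MTHFS, with a fold of 3.47. The 120 bases before its start are shown as the contrast to BID and BCL2L11. BID holds a CATGTG too, in its outermost window and outside its peak. The capitals mark CATGTG, a variant E-box which was counted together with CACATG, its reverse complement:

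BCL2A1, chr15:79971197-79971316, minus strand: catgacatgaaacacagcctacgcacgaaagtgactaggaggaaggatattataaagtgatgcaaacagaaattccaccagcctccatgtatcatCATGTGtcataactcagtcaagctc

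The window of BCL2A1 held 2 CpG dinucleotides in 300 bases and 41% G and C, and 6.03% of protein-coding windows had fewer CpGs. CATGTG was in 8.93% of all windows and in 6.22% of those with a summit.

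BAK1, the effector that sits in the outer mitochondrial membrane and forms pores once released, lies on chromosome 6 from 33572552 to 33580276 (minus strand). Its 1 peak, from 33570942 to 33571503, had a fold of 10.1 at a −log10 q of 50.9. The summit lay beyond the 3′ end of the gene, by 1200 bp, and 8924 bp downstream of its annotated start. No peak touched the promoter window of BAK1.

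The promoter windows of the members differed in CpG content, a feature the choice of genes did not use. The median window with a summit had 29 CpGs and the median window without one had 17. The BCL2L11 window held 39, and the BID windows around its summit held 29 and 31. The BCL2 window held 31 CpGs. Its first 4 bases, at the 5′ side, lay within the peak. The BCL2L1 windows held 16 and 20 CpGs and the BAD windows 21 and 24. A peak touched each of these BCL2, BCL2L1 and BAD windows, but none of them held a summit. BAK1 (7) and BCL2A1 (2), the 2 members whose windows no peak touched, had fewer than BCL2 and BCL2L11, the other members with 1 window. The outermost BID window, which the peak did not reach either, held 6, and the remaining 2 BID windows held 33 and 37. Of the 7 members with windows, 5 had a window touched by a peak, while 40.1% of all protein-coding genes with windows did. No test was made of this relation.

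The wider apoptosis machinery was looked at through 8 lists of 38 other genes. Peaks were found at 30 of the 38 by the 5000 bp rule and at an end of 19 by the 1000 bp rule, beside the 47.7% and 37.6% of all protein-coding genes. The median fold of their strongest peaks was 7.19, below the 8.56 of all protein-coding genes with a peak. A peak in the stronger 50% of the list by −log10 q was present at 8 of the 8 chosen members with a peak. Such a peak was present at 13 of the 30 other apoptosis genes and at 58.1% of the 9520 genes. The cutoff was 47.8, and BCL2, BCL2L2, MCL1, BAD and BAK1 passed it with 50.9 to 59.7. BCL2L2 passed it through the summit inside PPP1R3E. BAD passed it only through the peak at its 3′ end, since its other peak had 44.9. The BAK1 summit lay 1200 bp beyond the 3′ end of that gene. The 30 include further BCL2 family genes. Of these, BAX (76.1), BOK (56.3), BBC3 (55.3) and BCL2L12 (334) passed it, and PMAIP1 (18.8) and BCL2L13 (17.5) did not.

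**Figure D4:**
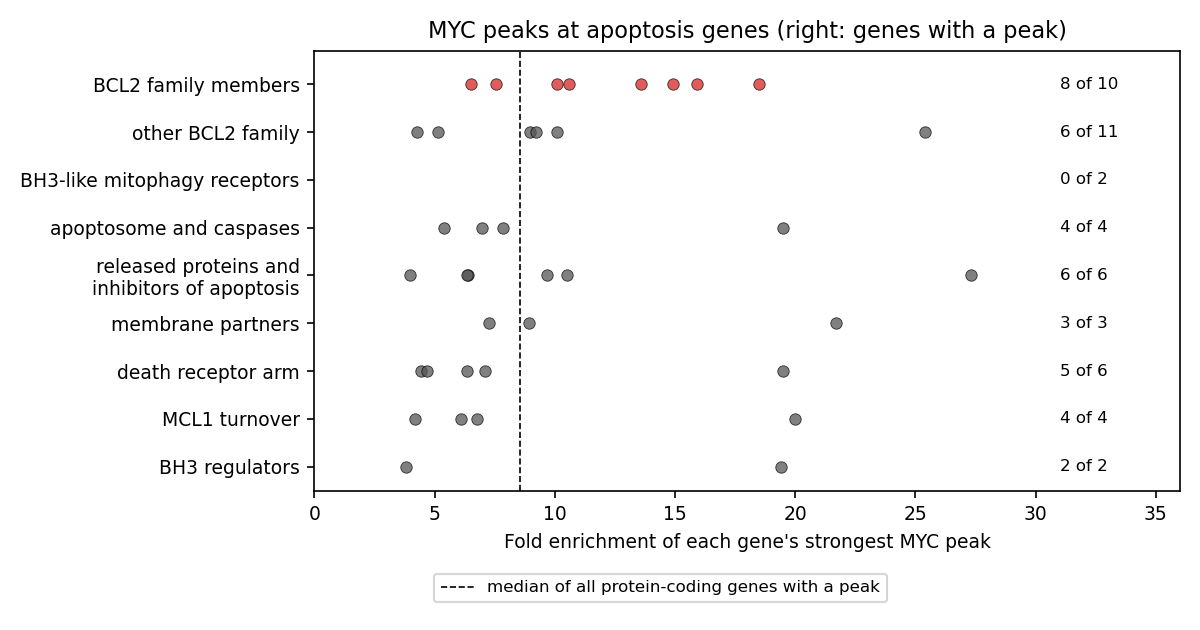
Each point is the authors' fold enrichment of the strongest MYC peak of 1 gene, by list, with the number of genes that have a peak at the right and a dashed line at 8.56, the median of all protein-coding genes with a peak. The 8 chosen BCL2 family members with a peak run from 6.53 to 18.5, and 0 of 2 mitophagy receptor genes have one. Further BCL2 family genes form a list of their own.

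In the remaining BCL2 family, 6 of 11 genes had a peak, 54.5% beside 47.7% of all protein-coding genes and 80% of the members. Of the 11, 3 had one at an end, 27.3% beside 37.6% of all protein-coding genes and 60% of the members. Those with a peak at an end were the effector gene BAX (fold 10.1, summit 40 bp from the end), PMAIP1, which encodes the BH3-only protein NOXA (4.27), and BCL2L13 (4.83, shared with ATP6V1E1). BBC3, the gene of the BH3-only protein PUMA, had a summit inside it, 1478 bp from an end, with a fold of 9.22. The highest fold in this group, 25.4 at BCL2L12, is named after its value was seen. That summit lay 3658 bp outside BCL2L12 and 1421 bp from an end of the arginine methyltransferase gene PRMT1. Neither mitophagy receptor gene, BNIP3 nor BNIP3L, had a peak.

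Downstream of the mitochondrial pore, all 4 apoptosome and caspase genes examined had a peak by the 5000 bp rule, with 2 at an end. Among all protein-coding genes the shares were 47.7% and 37.6%. The CASP9 summit lay 1946 bp outside that gene and 10 bp from an end of DNAJC16. CYCS, which encodes the cytochrome c that the pore releases, had a fold of 19.5 at a −log10 q of 399, above every peak of the 10 members. APAF1, the scaffold that cytochrome c assembles into the apoptosome, had a fold of 7.84. The peaks of CYCS and APAF1 were each shared with an end of another protein-coding gene (SPMIP4 and IKBIP). The APAF1 summit was nearer to IKBIP (167 bp) than to APAF1 (669 bp).

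Genes of inhibitors of apoptosis and of the mitochondrial proteins that oppose them had a peak in 6 of 6 cases, and 5 had it at an end. Over all protein-coding genes these shares were 47.7% and 37.6%, and no test was made of so short a list. BIRC5, which encodes survivin, a mitotic regulator, had the highest fold of the 38 genes (27.3, summit 3 bp from the end). The protease gene HTRA2 had 10.5 and shares its peak with AUP1, whose end was nearer to the summit (152 bp against 453 bp). The summit inside DIABLO lay 1449 bp from an end of DIABLO and 423 bp from an end of LOC128125816. The caspase inhibitor gene XIAP had 9.67, and the ubiquitin ligase genes BIRC2 and BIRC3 had 6.35 and 3.97.

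Among the membrane channels that bind BCL2 family proteins, all 3 genes had a peak, beside 47.7% of all protein-coding genes. VDAC2, whose protein holds BAK1 at the membrane, had a fold of 21.7 at its end, and VDAC3 had 7.28, shared with DKK4. In the death receptor arm, which feeds into BID, 5 of 6 genes had a peak, beside the same 47.7%. Against 37.6% of all protein-coding genes, 3 of the 6 had one at an end. These were the regulator gene CFLAR (7.10), the adaptor gene FADD (6.35) and the receptor gene TNFRSF10B (4.68). The highest fold of this arm was 19.5 at CASP8, at a −log10 q of 245. That summit lay inside CASP8, 24862 bp from its nearest end. FAS had a summit inside it with a fold of 4.45, which lay 328 bp from an end of ACTA2. Genes of proteins that take part in adding or removing ubiquitin on MCL1 had a peak in 4 of 4 cases. Those with one at an end were USP9X, the deubiquitinase (20), FBXW7 (6.09) and BTRC (4.17). These 4 genes are long, with a median of 178945 bp, and 53.3% of all protein-coding genes of at least 100000 bp had a peak. Of the transcription factors that act on BH3-only genes, DDIT3 had a peak at its end (3.80, shared with MBD6 and LOC128125814), and FOXO3 had one 1752 bp outside the gene (19.4).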

How the data were processed

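The labels describe MYC ChIP-Rx in U2OS cells with 2 IP libraries and 1 input. Per the submitters' processing notes, cutadapt, Bowtie2, SAMtools, Picard and MACS2 were used with hg19, mm10 and hg38. Versions, settings, the use of mouse reads and any pooling of the IP libraries are not stated in those notes or labels. The authors deposited 1 peak list with a fold enrichment (a linear ratio), −log10 p and −log10 q at each summit, and a score. The deposited −log10 p and score were not used. Depth is unknown, and no test was possible or made.

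Gene spans came from RefSeq GRCh38.p14, and strand and starts from its promoter table, which matched 7 of the 10 members. BCL2L2, MCL1 and BIK are not among them. Counts were made with Python 3.11.15, pandas 2.3.3 and numpy 2.4.6, and the assignment and motif steps were tested on simulated data. The strongest peak of a gene is that with the highest −log10 q. The canonical E-box and 2 variants of it were searched on both strands in windows of 300 bases. The members, lists and settings were chosen with earlier results of these data known. Named are all members, each of their peaks, and the genes with an end within 5000 bp of those summits. Other apoptosis genes with a summit within 1000 bp of an end are named too. BBC3, FOXO3, BCL2L12, BOK, CASP8, CASP9, DIABLO, FAS, BNIP3 and BNIP3L lie outside these rules and were chosen after the results were seen. A planned comparison of protein sequences was not made, and 2 genes of the planned apoptosis lists are not reported here.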

Additional observations from a re-analysis of the deposited data

How the results depend on the processing

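Counting summits inside the gene only left 4 members with a peak (BCL2L1, MCL1, BID and BAD; 25.9% of all protein-coding genes), 5 peaks and 15 of the other apoptosis genes, with a median fold of 12.8 over the members. With a window of 1000 bp around the gene, 6 members remained (44.1% of all protein-coding genes) and the median fold was 14.2. Assigning each peak to the nearest protein-coding end removed BCL2L2, leaving 7 members (38.2% of all genes) with a median fold of 13.6. By that rule 24 of the other apoptosis genes kept a peak. In the stronger 50% of peaks the other apoptosis genes with a peak fell from 30 to 13. The number of members with a peak stayed at 8 there (27.7% of all genes), with −log10 q of at least 10 (47.2%) and when any base of the peak could decide (47.9%). With end windows of 500 and 5000 bp, 4 and 8 members were bound at an end, beside 33% and 44% of all genes. There is 1 list and no value per library, so neither replicate error nor depth could be weighed.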
